A study of Homo sapiens with 9 samples.

Results

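The 10 imprinted genes DLK1, MEG3, PEG3, PEG10, NNAT, SNRPN, NDN, MEST, PLAGL1 and GRB10 were taken by gene name from the deposited count tables, which hold 31589 genes in all. Bulk mRNA was measured in 9 libraries of human spinal cord organoids (SCOs), 3 for each of 3 conditions. The vehicle SCOs received FGF alone, the VPA SCOs received valproic acid, an inhibitor of histone deacetylases and an antiepileptic drug known for causing neural tube defects, and the VPA + Rapamycin SCOs received valproic acid together with Rapamycin, an inhibitor of the kinase mTOR. According to the text of the study FGF was also present during exposure to VPA. The labels give an exposure of 96 h for all conditions and no dose, while the text of the study gives exposures of this and of shorter length, and differing doses of VPA. SCOs exposed to Rapamycin alone were not analysed here. All libraries derive from the human iPSC line WTC, given as wild type in the labels. According to the methods of the study, the cells carry a reporter and recombinase cassette inserted at SOX10 and a lineage reporter in every condition, and were used as the clones C2, C36 and C40, of which C36 and C40 also have indels on the other SOX10 allele. Several whole SCOs were pooled for a library. A legend of the study describes the columns of its heatmaps as 1 of 3 clones each. Replicate numbers 1 to 3, and a sample tag that goes with each number, recur in each condition, but no label links a number or tag with a named clone, so the p-values below measure the spread between these libraries.

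Imprinted genes are transcribed mainly from the copy inherited from one parent, a choice that is set by DNA methylation laid down in the germ line and kept through cell divisions. They lie in clusters, in which a methylated control region often governs several neighbours, and many of them regulate growth and the development of the nervous system. DLK1, PEG3, PEG10, NNAT, SNRPN, NDN, MEST and PLAGL1 are best known as genes of the paternal copy and MEG3 as a long non-coding RNA of the maternal copy, while the parent of origin of GRB10 differs between neurons and other tissues. The read counts used here sum both copies, so neither parent of origin nor loss of imprinting was measured.

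Promoter sequences of 6 of the 10 genes are given first, as a description. Promoter windows of RefSeq (GRCh38.p14), from 250 bases before to 50 bases after a start site, were found for 6 of the 10 genes (MEG3, SNRPN, NDN, MEST, PLAGL1 and GRB10). They were searched on both strands for TGCCGC, which reads GCGGCA on the other strand. In its methylated form this is the sequence read by ZFP57, a zinc finger protein that protects imprints. The hexamer was in 12 of the 23 windows of these genes (52.2%) and in 5878 of all 35116 windows (16.7%). Per gene, it was in at least 1 window of 6 of 6 members and of 19.5% of all 27305 genes with a window. Windows of a gene can overlap, genes with several windows have more chances of a match, and the windows of the members held more CpG dinucleotides (median 18) than all windows (median 14). No other motif was searched. The match nearest to a start site is shown for each gene in capitals, read along the strand of the gene.
MEST, plus strand, chr7:130492075-130492100: cgctccgcgcTGCCGCggcaaccagc
SNRPN, plus strand, chr15:24954953-24954978: gtgcgaagccTGCCGCtgctgcagcg
NDN, minus strand, chr15:23687353-23687378: gcaggcgcagTGCCGCgtcccgccgc
MEG3, plus strand, chr14:100825917-100825942: caggggcactGCGGCAgaattttttc
PLAGL1, minus strand, chr6:144008335-144008360: gctgccgcggGCGGCAaagcccacgg
GRB10, minus strand, chr7:50793505-50793530: ggcggcggcgGCGGCAgaggcgggga

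MEST and MEG3 also host microRNAs on their own strand (RefSeq, GRCh38.p14). The arms of miR-335 lie between exons of MEST. Within MEG3, miR-770 lies in an exon and miR-2392 between exons. None of them has a row of its own in the count tables, so their levels were not analysed here. They are shown because they lie inside the transcripts measured here, with the seed (bases 2 to 8), which pairs with targets, in capitals.
hsa-miR-335-5p, chr7:130496126-130496148: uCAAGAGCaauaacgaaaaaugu
hsa-miR-335-3p, chr7:130496162-130496183: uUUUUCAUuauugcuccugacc
hsa-miR-770-5p, chr14:100852409-100852431: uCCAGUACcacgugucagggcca
hsa-miR-2392, chr14:100814551-100814570: uAGGAUGGgggugagaggug

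The libraries held 15290436 to 17417478 reads counted on genes, and a floor of 3 counts corresponded to 0.172 to 0.196 CPM, a count relative to the library total, which covers counting error only. Replicates were further apart than sampling noise, and the chi-square per gene, about 1 where only sampling noise acts, was at least 4.77 for each pair of the same condition and highest between vehicle replicates 1 and 3. Vehicle replicate 3 also held reads that the other vehicle libraries lacked, with 307 counts of the neural crest gene TFAP2B against 2 and 2, and 97 counts of the fibroblast proteoglycan gene DCN against 0 and 0. Where leaving it out changed a call given below, the change is stated. Of the spinal cord identity markers, HOXB4 (280 to 518 counts), NKX6-1 (891 to 2670) and HOXC8 (107 to 539) were present in every library. OLIG2 had 65 to 456 counts in vehicle and 0 to 134 with VPA, and PAX7 had 5 to 131 and 0 to 10. Of the 8 markers of this list, 4 were lowered by VPA (HOXC6, HOXC8, HOXC9 and NKX6-1), where 15.7% of all genes were lowered. HOXA7 was lowered as well without vehicle replicate 3. The summed level of the 8 was 3463 to 5805 normalized counts in vehicle, 1939 to 2410 with VPA and 2986 to 4744 with VPA + Rapamycin.

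All 10 genes have rows in the tables, and 9 had enough reads to be tested in each comparison. Their levels spanned several orders of magnitude. Per kilobase of annotated transcript, the mean level in vehicle SCOs was highest for MEST (2158 ± 74.8 normalized counts per kb, SD, n = 3), followed by NDN (1369 ± 90.6), PEG10 (1351 ± 443), NNAT (662 ± 900), DLK1 (574 ± 250), GRB10 (190 ± 29.7), SNRPN (99.5 ± 11.5), PLAGL1 (46.0 ± 15.9), MEG3 (2.92 ± 1.60) and PEG3 (0 in each library). In this order the vehicle libraries of NDN and PEG10, of PEG10 and NNAT and of NNAT and DLK1 overlapped, whereas those of every other adjacent pair did not. In VPA SCOs the order began with PEG10 (1610 ± 79.4 per kb), NDN (1446 ± 39.5) and MEST (880 ± 36.3), and the libraries of these 3 genes did not overlap. In VPA + Rapamycin SCOs PEG10 (1490 ± 117) and NDN (1341 ± 132) overlapped and MEST lay below both, at 1119 ± 60.1. The annotated length of MEG3 (23224 bases) joins many isoforms, so its level per kb is a low estimate for any single isoform.

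**Figure D1:**
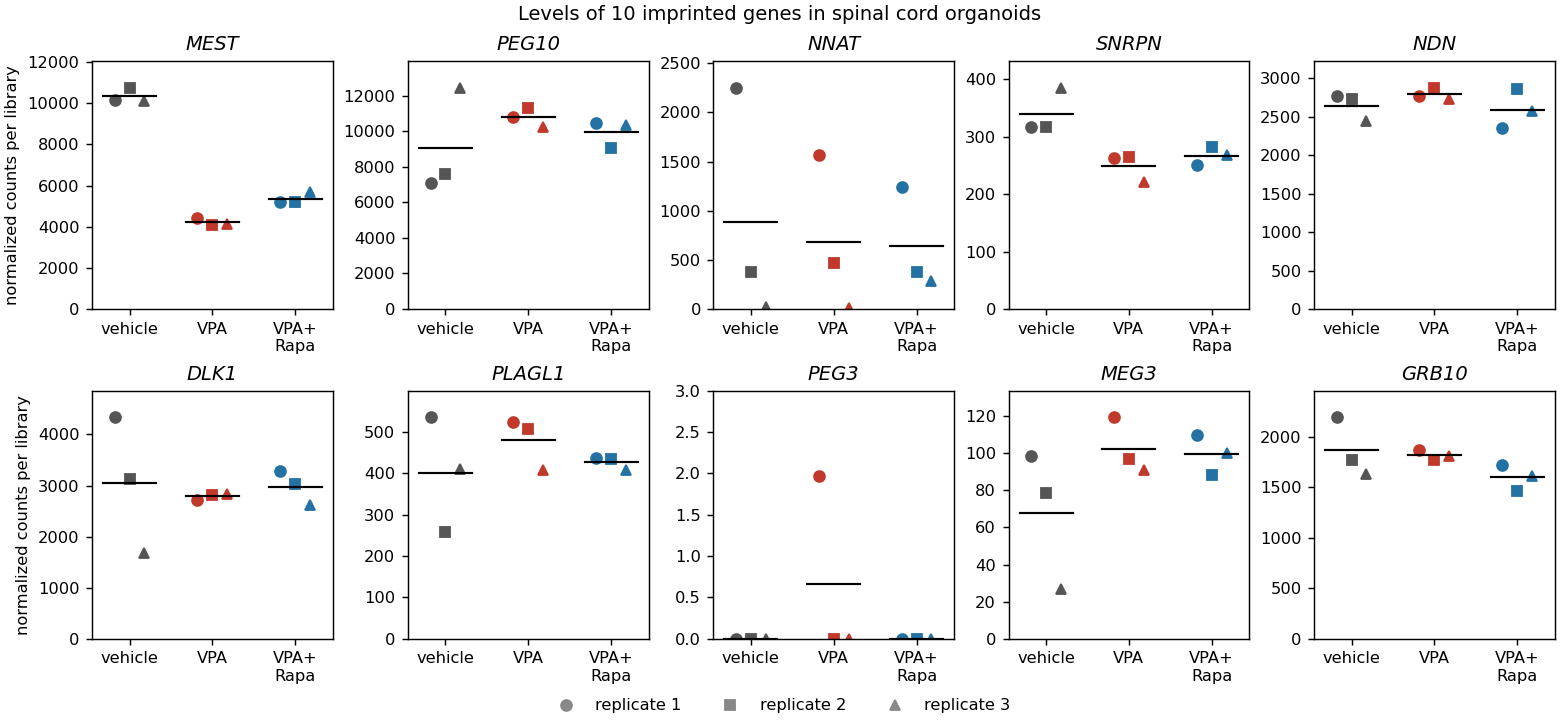
Normalized counts (linear axis from 0, own scale per gene) of the 10 genes in the 9 libraries, with the condition on the horizontal axis, 1 symbol per replicate number and a black line at the mean. MEST falls from a mean of 10344 in vehicle to 4221 with VPA, NNAT spreads by replicate number, and vehicle replicate 3 (triangle) is the lowest vehicle library of DLK1, MEG3 and NNAT and the highest of PEG10.

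Exposure to VPA lowered MEST and, less firmly, SNRPN, and raised none of the listed genes. Of the 9 genes tested, 2 were lowered and 0 raised at an adjusted p of at most 0.05 (22.2%), where 32.1% of all 17360 genes tested were called in either direction (16.4% raised and 15.7% lowered). The share among the imprinted genes is thus not above that of all genes. The median log2 fold change was -0.05 over the 9 genes and -0.0030 over all genes. Libraries of vehicle and VPA did not overlap for 2 of the 9 genes, against 47.5% of all genes tested.

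MEST (ENSG00000106484) lies on the plus strand at chr7:130486171-130506465 of GRCh38 and encodes a protein of the alpha/beta hydrolase family, named after its expression in embryonic mesoderm. Vehicle SCOs gave 10407, 9889 and 9884 reads, VPA SCOs gave 4481, 4028 and 4409, and 5280, 5415 and 5472 were counted with VPA + Rapamycin. Every VPA library lay below every VPA + Rapamycin library, and these lay below every vehicle library. Of all genes tested, 47.5% did not overlap between vehicle and VPA. The share was 25.5% for VPA + Rapamycin against VPA and 38.5% for VPA + Rapamycin against vehicle. As normalized counts the levels of MEST were 10344 ± 359, 4221 ± 174 and 5363 ± 288 (SD, n = 3 each). In bulk RNA of whole SCOs, fewer cells of a type and less RNA per cell cannot be told apart. In VPA against vehicle the log2 fold change was -1.30 (standard error, SE, 0.09, 95% interval -1.50 to -1.10, edgeR, adjusted p = 8.38e-06), which is a level 2.47-fold lower. By p-value MEST ranked 24 among the 17360 genes, and 3.28% of all genes had a log2 fold change as low or lower. The call held under all 13 alternatives, with log2 fold changes from -1.33 to -1.27.

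Adding Rapamycin to VPA raised MEST, to a level still below that of vehicle. The log2 fold change in VPA + Rapamycin against VPA was 0.35 (SE 0.07, adjusted p = 0.00646, 1.27-fold higher). MEST was the only 1 of the 9 genes called in that comparison, in which 6.74% of all 17317 genes tested were called (3.01% raised) and 11.5% had a log2 fold change as high or higher. Its call was lost in the fit of all 9 libraries together (adjusted p = 0.0765) and without VPA replicate 2 (adjusted p = 0.0619). In VPA + Rapamycin against vehicle MEST stayed lower, with a log2 fold change of -0.96 (SE 0.10, adjusted p = 0.000268), and was again the only 1 of the 9 genes called, where 19% of all 17383 genes tested were called (9.22% lowered) and 4.29% had a log2 fold change as low or lower. This last call held under all 13 alternatives. The 3 comparisons share their libraries in pairs and are not independent of each other.

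At the 3′ end MEST shares 228 of its 4794 exon bases with COPG2, a coat protein gene on the opposite strand, which had 34.8% of the mean count of MEST. The library kit does not mark strand, so reads over the shared bases cannot be assigned to either gene. COPG2 held 1898 to 2270 counts in vehicle and 2422 to 2499 with VPA, a log2 fold change of 0.17 (adjusted p = 0.235), or 0.25 without vehicle replicate 3 (adjusted p = 0.0499). The antisense RNA MESTIT1 had 1 to 22 counts in any library and AC007938.2, an antisense transcript over miR-335, averaged 9.11 counts, against 6585 for MEST. Of the other genes of the cluster at 7q32, CPA4, a carboxypeptidase gene, had 18.3 ± 6.58 normalized counts in vehicle and 13.1 ± 12.3 with VPA (SD, n = 3 each), and KLF14, a single-exon transcription factor gene, had at most 7 counts in a library.

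SNRPN (ENSG00000128739, plus strand, chr15:24823637-24978723) encodes SmN, a core protein of the splicing machinery of neurons, and belongs to the region deleted in Prader-Willi syndrome. Its counts were 324, 292 and 377 in vehicle, 266, 260 and 235 with VPA and 255, 294 and 257 with VPA + Rapamycin. As normalized counts the vehicle libraries did not overlap those of either treated condition (nor did they in 38.5% of all genes for VPA + Rapamycin against vehicle), at 340 ± 39.4 against 249 ± 25.0 and 267 ± 16.1 (SD, n = 3 each). In VPA against vehicle the log2 fold change was -0.46 (SE 0.15, adjusted p = 0.0405), and the call held in 4 of 13 alternatives, with adjusted p from 0.0208 to 0.161. It was lost with DESeq2, with upper-quartile normalization, without a filter on low counts, with the replicate number as a block, and without vehicle replicate 2 or 3 or any single VPA library. The log2 fold change was -0.35 without vehicle replicate 3 (adjusted p = 0.0867) and -0.46 with the block (adjusted p = 0.0798). In VPA + Rapamycin against vehicle the log2 fold change was -0.36 (adjusted p = 0.117) and against VPA it was 0.10 (adjusted p = 0.705). SNRPN shares 814 of its 3416 exon bases with SNURF on the same strand, and 141 with SNHG14, the long host transcript of the snoRNAs of the region, whose mean count was 1299% of that of SNRPN. Part of the reads can belong to these genes. SNURF had 22, 13 and 16 counts in vehicle and 13, 6 and 12 with VPA (log2 fold change -0.79, adjusted p = 0.232), and for SNHG14 the fold change on this scale was -0.04 (adjusted p = 0.827). The part of shared reads in the values of SNRPN was not tested.

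**Figure D2:**
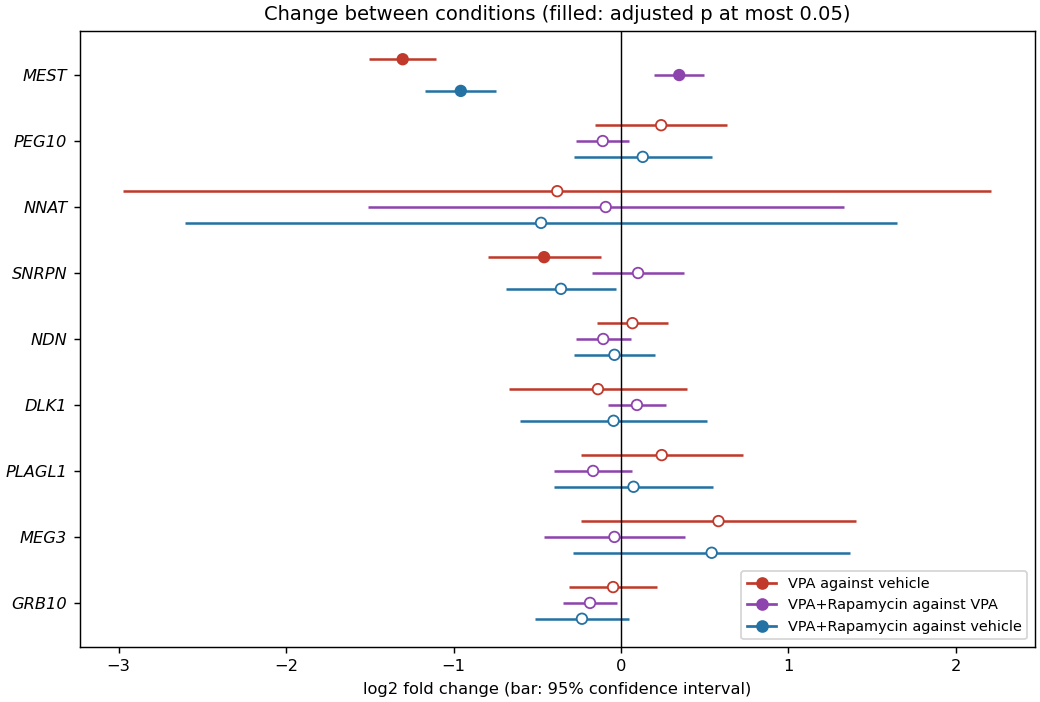
Log2 fold change (horizontal axis, bars are 95% confidence intervals of the edgeR fit, 3 libraries against 3) of the 9 tested genes in the 3 comparisons, filled where the adjusted p is at most 0.05. MEST at -1.30, 0.35 and -0.96 and SNRPN at -0.46 in VPA against vehicle are the filled points, and the interval of NNAT spans -2.97 to 2.21.

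Necdin, encoded by NDN (ENSG00000182636, minus strand, chr15:23685400-23687330), is a protein of the MAGE family of postmitotic neurons from the same Prader-Willi region. It held 2389 to 2827 counts in vehicle, 2811 to 2907 with VPA and 2389 to 2969 with VPA + Rapamycin, and its libraries overlapped in each comparison. The log2 fold changes were 0.07, -0.11 and -0.04 in VPA against vehicle, VPA + Rapamycin against VPA and VPA + Rapamycin against vehicle. In the first of these the 95% interval ran from -0.14 to 0.28, which is the narrowest but one among the 9 genes after that of MEST.

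At 15q11 VPA lowered 5 of the 7 tested genes around SNRPN and NDN, where 15.7% of all genes were lowered. The others, SNURF and SNHG14, did not pass the test. MKRN3, a ubiquitin ligase gene in which mutations cause early puberty, had 488, 550 and 452 counts in vehicle and 280, 292 and 336 with VPA, a log2 fold change of -0.80 (adjusted p = 0.00193). MAGEL2, which encodes another protein of the MAGE family, had 1515, 1243 and 806 counts in vehicle and 778, 694 and 739 with VPA (log2 fold change -0.76, adjusted p = 0.00903). The non-coding RNA genes PWRN1 (-1.50, adjusted p = 0.00759) and PWAR6 (-0.52, adjusted p = 0.0274) and the ubiquitin ligase gene UBE3A (-0.37, adjusted p = 0.0287), the gene of Angelman syndrome, were lowered as well. PWAR6 lies within the span of SNHG14 on the same strand, and UBE3A overlaps SNHG14 on the opposite strand, so reads of these genes are uncertain. The calls of PWAR6 and UBE3A were lost when vehicle replicate 2 or any single VPA library was left out, with adjusted p up to 0.123 and 0.121, and that of UBE3A also with the replicate block. NDN, with a log2 fold change of 0.07, lay between the lowered genes MAGEL2 and PWRN1, the nearest tested genes of the list on either side. Whether NDN differs from its neighbours in its change was not tested.

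DLK1 (ENSG00000185559, plus strand, chr14:100725705-100738224) encodes a transmembrane protein related to the Notch ligands that holds back differentiation. Its counts were 4437, 2870 and 1650 in vehicle, 2755, 2769 and 3010 with VPA and 3336, 3143 and 2515 with VPA + Rapamycin. The VPA libraries lay close together within the wide range of vehicle, and the normalized levels were 3048 ± 1326, 2788 ± 60.7 and 2972 ± 332 (SD, n = 3 each). In VPA against vehicle the log2 fold change was -0.14 (SE 0.24, adjusted p = 0.701). The estimate rested on single vehicle libraries, being -0.42 without vehicle replicate 3 (adjusted p = 0.00694) and 0.21 without vehicle replicate 1 (adjusted p = 0.400). MEG3 (ENSG00000214548, plus strand, chr14:100779410-100861031), the non-coding RNA of the same cluster, had 101, 72 and 26 counts in vehicle, 121, 95 and 97 with VPA and 112, 92 and 96 with VPA + Rapamycin. Vehicle replicate 3 was again the lowest library. The log2 fold change of MEG3 was 0.58 in VPA against vehicle (SE 0.38, adjusted p = 0.260) and 0.20 without vehicle replicate 3 (adjusted p = 0.562).

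Further along 14q32 the deiodinase gene DIO3, whose product inactivates thyroid hormone, was raised by VPA. Its counts were 156, 163 and 142 in vehicle, 292, 285 and 226 with VPA and 298, 217 and 418 with VPA + Rapamycin. Each treated library was thus above each vehicle library. Of all genes tested, 47.5% did not overlap between vehicle and VPA and 38.5% between vehicle and VPA + Rapamycin. The log2 fold change of DIO3 was 0.72 in VPA against vehicle (adjusted p = 0.0109) and 0.97 in VPA + Rapamycin against vehicle (adjusted p = 0.0199). The first call was lost without VPA replicate 1 or 2 (adjusted p up to 0.0593) and the second without VPA + Rapamycin replicate 1 or 3 (adjusted p up to 0.0883). RTL1, a retrotransposon-derived gene, had 14 to 45 counts in vehicle and 36 to 61 with VPA (log2 fold change 0.68, adjusted p = 0.227), and the RNAs MEG8 and MEG9 were too low to be tested, with at most 6 counts in a library.

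PEG10 (ENSG00000242265, plus strand, chr7:94656325-94669695) is derived from a retrotransposon and needed for the placenta in mice. It had 7261, 6960 and 12174 counts in vehicle, 10961, 11067 and 10888 with VPA and 10666, 9431 and 9950 with VPA + Rapamycin. Vehicle replicate 3 was above every other library and the other vehicle libraries were below all others. With all 6 libraries the log2 fold change in VPA against vehicle was 0.24 (SE 0.18, adjusted p = 0.336). Without vehicle replicate 3 it was 0.55 (adjusted p = 0.000103), and in VPA + Rapamycin against vehicle it changed from 0.13 (adjusted p = 0.667) to 0.44 (adjusted p = 0.00775). Without this library MEST, DLK1 and PEG10 made up the 3 listed genes called in VPA against vehicle. The divergent neighbour SGCE, a sarcoglycan gene whose loss on the paternal copy causes myoclonus dystonia, had 891, 805 and 1154 counts in vehicle and 788, 596 and 809 with VPA (log2 fold change -0.46, adjusted p = 0.0396). Its call held in 7 of 13 alternatives and was lost without vehicle replicate 3 (-0.29, adjusted p = 0.0724). PPP1R9A, which encodes the actin-binding protein neurabin, also fell, with a log2 fold change of -0.65 (adjusted p = 0.0107), a call lost without VPA replicate 2 (adjusted p = 0.0607).

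**Figure D3:**
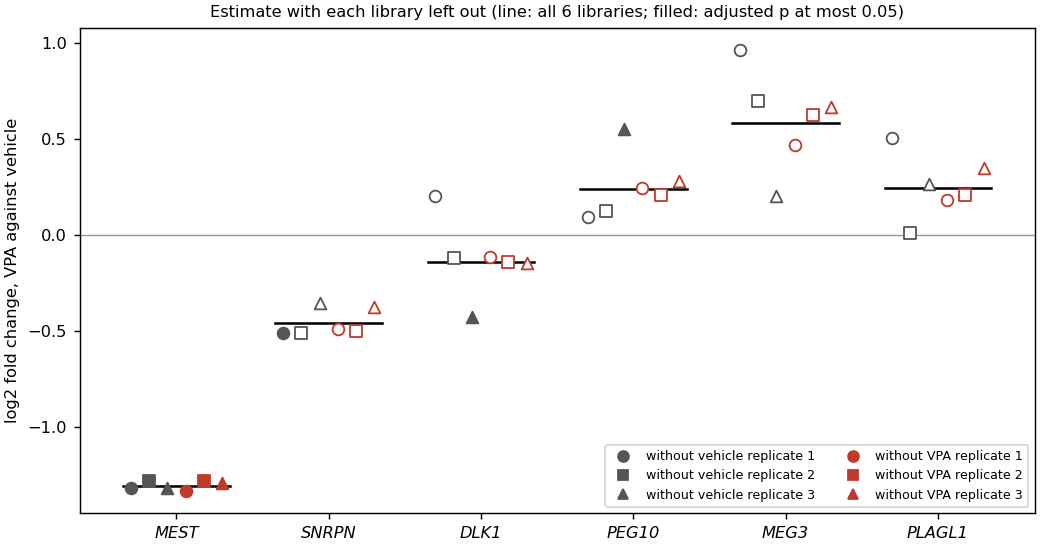
Log2 fold change in VPA against vehicle for 6 genes when each library is left out in turn (grey symbols leave out a vehicle library, red symbols a VPA library, the shape gives its replicate number), with a black line at the value of all 6 libraries and filled symbols at an adjusted p of at most 0.05. MEST stays between -1.33 and -1.28, while DLK1 ranges from -0.42 to 0.21 and PEG10 from 0.09 to 0.55 with the vehicle library left out.

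NNAT (ENSG00000053438, plus strand, chr20:37521206-37523693) encodes neuronatin, a small membrane protein of the developing brain. It varied more by replicate number than by condition. The libraries numbered 1 held 2304 (vehicle), 1586 (VPA) and 1266 (VPA + Rapamycin) counts, those numbered 2 held 342, 461 and 393, and those numbered 3 held 21, 14 and 278. The levels of the 3 numbers did not overlap across the conditions, which held for 19 of the 16734 genes tested in all comparisons (0.114%), with NNAT the only listed gene among them. The highest library was 171-fold above the lowest. Among the 11979 genes with a mean of at least 100 normalized counts this was rank 2. That rank leaves out 3 genes whose lowest library was 0, for which no ratio exists. No comparison between conditions could be made with precision, and the log2 fold change in VPA against vehicle was -0.38 with a standard error of 1.18 (adjusted p = 0.833). Whether the numbers stand for the clones cannot be read from the labels, and the part of the clone in this spread was not tested.

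BLCAP spans NNAT on the opposite strand and shares 85 of its 1332 exon bases. Its mean count was 207% of that of NNAT, so reads over the shared bases are uncertain. BLCAP did not follow the replicate numbers. It held 1821, 1659 and 2198 counts in vehicle, 1272, 1235 and 1430 with VPA and 1300, 1575 and 1320 with VPA + Rapamycin. VPA lowered it (log2 fold change -0.61, adjusted p = 0.00294), and it stayed lower with VPA + Rapamycin than in vehicle (-0.49, adjusted p = 0.0211), the latter call being lost without VPA + Rapamycin replicate 1 or 3.

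**Figure D4:**
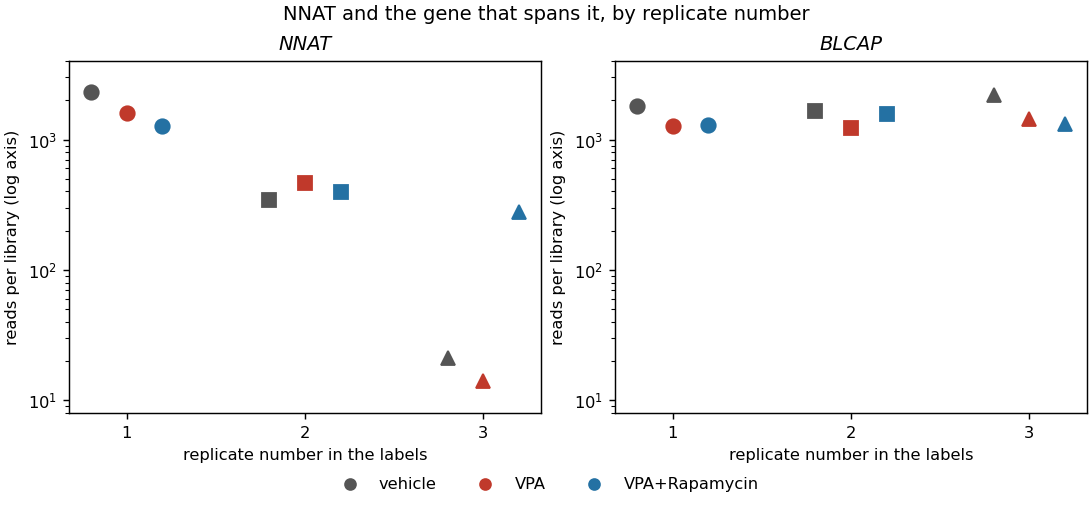
Reads per library (log axis) of NNAT and of BLCAP, which spans it, with the replicate number of the labels on the horizontal axis and the condition in colour. NNAT has 1266 to 2304 reads in the libraries numbered 1, 342 to 461 in those numbered 2 and 14 to 278 in those numbered 3, while BLCAP stays between 1235 and 2198.

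The transcription factors of the list differed widely in level. PLAGL1 (ENSG00000118495, minus strand, chr6:143940300-144064599) encodes a zinc finger factor that slows the cell cycle and is linked to transient neonatal diabetes. It had 548, 238 and 402 counts in vehicle, 532, 497 and 436 with VPA and 446, 452 and 391 with VPA + Rapamycin. The conditions overlapped, and the log2 fold change was 0.24 in VPA against vehicle (SE 0.22, adjusted p = 0.428) and 0.01 without vehicle replicate 2. HYMAI, a non-coding RNA within its span, had 2 to 16 counts in a library. PEG3 (ENSG00000198300, minus strand, chr19:56810077-56840728), a zinc finger gene of high expression in the embryonic brain of mice, had 2 counts in VPA replicate 1 and 0 in the other 8 libraries. No comparison was made for it, since every library lay under the floor of 3 counts. Its neighbours ZIM2, MIMT1 and USP29 could not be taken by gene name from the deposited counts and were not analysed here.

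GRB10 (ENSG00000106070, minus strand, chr7:50590063-50793462) encodes an adaptor that binds the insulin receptor and is a known substrate of mTOR complex 1, the target of Rapamycin. Its counts were 2241, 1627 and 1596 in vehicle, 1894, 1739 and 1930 with VPA and 1752, 1518 and 1544 with VPA + Rapamycin. As normalized counts every VPA + Rapamycin library was below every VPA library, at 1596 ± 131 against 1817 ± 48.6 (SD, n = 3 each). Its log2 fold change, -0.18 (SE 0.08), did not pass the threshold (adjusted p = 0.167), and 25.5% of all genes tested had libraries that did not overlap in that comparison. In VPA against vehicle it was -0.05 (adjusted p = 0.795). DDC, the neighbouring gene of the enzyme that makes dopamine and serotonin, had 28 to 40 counts in vehicle and 10 to 25 with VPA (log2 fold change -0.92, adjusted p = 0.105).

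Counted over the clusters of all 10 genes, VPA lowered 8 of the 15 neighbours tested (53.3%, where 15.7% of all genes were lowered) and raised 1, DIO3. The median log2 fold change of the 15 was -0.52. The 8 were SGCE, PPP1R9A, BLCAP, PWAR6, PWRN1, MAGEL2, MKRN3 and UBE3A. Without vehicle replicate 3 the count was 7, with SGCE lost, and 2 were raised, with COPG2 added. The count of lowered genes ranged from 4 to 8 over 13 alternatives, being 4 without VPA replicate 2 and 5 without VPA replicate 1 or 3 or vehicle replicate 2. BLCAP, MAGEL2, MKRN3 and PWRN1 were called lowered in each of them. Genes of a cluster can share control elements and reads, so they are not independent of each other. In VPA + Rapamycin against VPA 0 of 16 neighbours passed the test, where 6.74% of all genes were called. Without VPA + Rapamycin replicate 1, 1 of 17 was raised. In VPA + Rapamycin against vehicle 1 was raised and 4 were lowered of 16 (25%, where 9.22% of all genes were lowered). These 4 became 0 without VPA + Rapamycin replicate 1 and 2 without VPA + Rapamycin replicate 2. The count was 1 without VPA + Rapamycin replicate 3 or vehicle replicate 2. It was 5 without vehicle replicate 3, with MKRN3 added (adjusted p = 0.0466), and 7 with the replicate block.

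**Figure D5:**
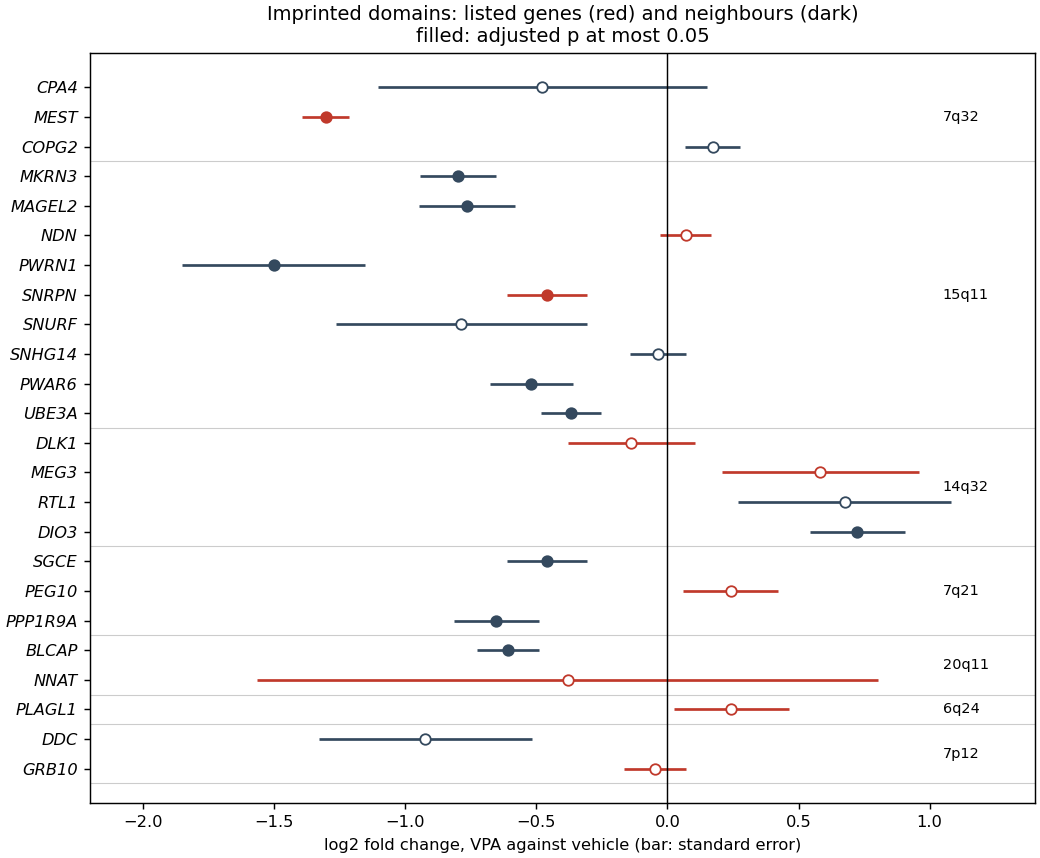
Log2 fold change in VPA against vehicle (horizontal axis, bars are the standard error) of the tested genes of each imprinted cluster, ordered along the chromosome within a cluster, with listed genes in red and neighbours dark, filled at an adjusted p of at most 0.05. Filled points lie left of 0 except DIO3 at 0.72, and NDN lies near 0 between the lowered MAGEL2 and PWRN1.

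Imprinted genes outside these clusters moved in both directions. Of 19 tested, VPA raised 5 and lowered 5 (52.6%, where 32.1% of all genes were called), with a median log2 fold change of -0.01. The count of lowered genes fell to 3 when any single VPA library was left out, through the loss of the calls of KCNQ1OT1 and ZDBF2 (VPA replicate 1 or 2) or GNAS and ZDBF2 (VPA replicate 3). Without vehicle replicate 3 it was 6, with L3MBTL1 added, and 6 were raised, with NAP1L5 added. In the cluster at 11p15, KCNQ1, a potassium channel gene, was raised from 26 to 56 counts in vehicle to 117 to 142 with VPA (log2 fold change 1.62, adjusted p = 0.00165), as was the transporter gene SLC22A18 (1.15, adjusted p = 0.00433). The growth factor gene IGF2 rose from 2 to 5 counts to 22 to 25 (2.41, adjusted p = 0.00517). In the same cluster the cell cycle inhibitor gene CDKN1C was lowered (-0.71, adjusted p = 0.00122), as was the non-coding RNA KCNQ1OT1 (-0.77, adjusted p = 0.0284), which lies within KCNQ1 on the opposite strand, so that reads there are uncertain. The non-coding RNA PEG13 fell from 107 to 173 counts to 31 to 45 (-1.95), and TRAPPC9, whose span contains it, rose from 521 to 633 counts to 1060 to 1170 (0.88). The GTPase gene DIRAS3 was raised and GNAS, which encodes a G protein subunit, and ZDBF2 were lowered. In VPA + Rapamycin against VPA 0 of these 19 genes passed the test, where 6.74% of all genes were called. Over the alternatives 0 were raised and at most 1 was lowered.

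Of 13 tested genes that maintain or erase imprints, VPA raised 1 and lowered 5, and the other 7 did not pass the test. The share lowered was 38.5%, where 15.7% of all genes were lowered. TET1, TET2 and TET3, the enzymes that oxidise methylated cytosine, were all lowered, with log2 fold changes of -0.88, -1.02 and -0.63. The zinc finger gene ZNF445, a reader of imprinted control regions, fell (-0.52, adjusted p = 0.00263), and so did SETDB1, a histone H3 lysine methyltransferase gene (-0.43, adjusted p = 0.0148), whose call was lost without VPA replicate 1 or 3 or vehicle replicate 2. UHRF1, which brings DNMT1 to replicated DNA, was raised (0.69, adjusted p = 0.00172), and DNMT1, the maintenance methyltransferase, did not pass the test (0.24, adjusted p = 0.204). Without vehicle replicate 3 the count of lowered genes was again 5. ZFP57 had 4 counts in vehicle replicate 3 and 0 in the other 8 libraries. Rapamycin added to VPA raised TET2 (0.45, adjusted p = 0.00718) and no other gene of this list (7.69%, where 6.74% of all genes were called). The call of TET2 was lost in the fit of all 9 libraries (adjusted p = 0.224) and without VPA + Rapamycin replicate 3. DNA methylation itself was not analysed here.

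Of the close paralogs of the listed genes, VPA raised DLK2 (1.37) and GRB14 (3.31) and lowered PLAG1 (-0.95) among 5 tested. This was 60% of the tested paralogs, where 32.1% of all genes were called. GRB14 had 2 to 7 counts in vehicle and 33 to 83 with VPA. SNRPB, the widely expressed counterpart of SNRPN, had a log2 fold change of 0.11 in VPA against vehicle (adjusted p = 0.481) and fell in VPA + Rapamycin against VPA (-0.28, adjusted p = 0.0392), a call that held in 6 of 13 alternatives.

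Markers of other cell types moved with the conditions, and their part in the results above was not tested. For scale, VPA raised 16.4% and lowered 15.7% of all genes tested, and 6.74% were called when Rapamycin was added. Of 8 neuron markers, VPA lowered 5 (TUBB3, DCX, ELAVL3, ELAVL4 and MAP2, of which TUBB3 was lost without vehicle replicate 3), and their summed level was 23446 to 39827 normalized counts in vehicle, 20865 to 22223 with VPA and 22468 to 23494 with VPA + Rapamycin. Neural progenitor markers summed to 61697 to 63855, 59942 to 62189 and 52802 to 61317. Of 7 tested, VPA raised 1 (HES5, log2 fold change 0.95, adjusted p = 0.000114) and lowered 1 (VIM, -0.40, adjusted p = 0.00786). Without vehicle replicate 3, SOX1 was raised and FABP7 lowered in addition. When Rapamycin was added, 2 of 7 were lowered, HES5 (-0.61, adjusted p = 0.000444) and FABP7 (-0.55, adjusted p = 0.000292). The call of FABP7 was lost in the fit of all 9 libraries. Mesenchymal markers summed to 2449 to 5166 in vehicle, 9510 to 12096 with VPA and 4227 to 6290 with VPA + Rapamycin. VPA raised 2 of the 7 tested (COL1A1 and COL1A2) and 5 without vehicle replicate 3 (LUM, PRRX1 and TWIST1 in addition). When Rapamycin was added 6 of 7 were lowered, with 0 in the fit of all 9 libraries and 3 to 5 when a library was left out. Neural crest markers summed to 6543 to 7921, 6420 to 6862 and 6402 to 7007, with 3 of 5 lowered and 1 raised by VPA (2 lowered without vehicle replicate 3, TFAP2A being lost). Skeletal muscle markers summed to 62.0 to 452, 278 to 322 and 85.4 to 194. The highest of these, vehicle replicate 3, held 295 counts of PAX3 and 131 of PAX7, which neural cells also express. VPA raised 2 of the 4 muscle markers tested. The other 2, PAX3 (log2 fold change -1.26, adjusted p = 0.237) and PAX7 (-3.23, adjusted p = 0.0504), had negative estimates and did not pass the test. The count of lowered muscle markers ranged from 0 to 2 over 13 alternatives. MYOG had at most 4 counts in a library, and MYF5 was absent from the deposited counts. MYOD1, the muscle determination factor, had 1, 0 and 0 counts in vehicle and 26, 17 and 14 with VPA (adjusted p = 0.00119), and the troponin gene TNNT1 had 81, 31 and 11 against 195, 192 and 244 (log2 fold change 2.29, adjusted p = 0.00321). When Rapamycin was added, 1 of 3 muscle markers tested was lowered, TNNT1 (-1.32, adjusted p = 0.000521). This call was lost in the fit of all 9 libraries (adjusted p = 0.154). Pluripotency markers summed to 1622 to 4049, 2243 to 3010 and 1403 to 2445. Nearly all of this was LIN28A, which early neural progenitors also express, with 1336 to 4131 counts in a library. It had a log2 fold change of -0.01 with VPA (adjusted p = 0.986) and fell when Rapamycin was added (-0.53, adjusted p = 0.0474), a call that held in 6 of 13 alternatives. The other pluripotency markers, POU5F1, NANOG and ZFP42, had at most 14 counts in a library. DCN and PRRX1 were at 0 in vehicle replicates 1 and 2 and TWIST1 in vehicle replicate 1.

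The genes most like each listed gene across the 9 libraries were found among 11978 other genes (11979 for MEG3) by the Pearson correlation of log2 CPM. The libraries share 3 conditions and the best of many candidates was taken, so the values are descriptions only. MEST was closest to CHD2 (r = 0.995), SNRPN to PLCB4 (0.981), DLK1 to NPLOC4 (0.983), MEG3 to HOMEZ (0.979), PEG10 to TSPAN7 (0.972), GRB10 to DGLUCY (0.975), NDN to GYS1 (0.961), PLAGL1 to LOXL1-AS1 (0.927) and NNAT to ZNF85 (0.915). CHD2, a chromatin remodeller gene, had 3105 ± 53.2 normalized counts in vehicle, 1495 ± 50.8 with VPA and 1822 ± 78.3 with VPA + Rapamycin (SD, n = 3 each). No listed gene was the closest of another. MEG3 and PEG3 could not be chosen, because their mean levels were under the minimum of 100 normalized counts for a candidate.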

How the data were processed

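mRNA of the SCOs was purified by the authors on poly-T beads, primed with random hexamers and made into libraries with a kit that does not mark strand. The submitters' processing notes name HISAT2 2.0.5 and featureCounts 1.5.0-p3, and the strand setting of the counting is not given in the sources used here. The authors deposited raw counts per gene in 1 table for each pair of conditions (30034, 29566 and 30047 genes), from which genes whose 6 libraries sum to fewer than 2 reads are absent. A deposited signal per library, which is the count over a size factor, was not used. The deposited FPKM values, the log2 fold changes and the p-values of the authors' own comparisons, made with DESeq2, were not used. Gene positions are those of the tables and matched GENCODE 29 on GRCh38 for all 10 genes.

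Counts were compared in R 4.3.3 with edgeR 4.0.16 (TMM, filterByExpr at its defaults, quasi-likelihood F test, Benjamini-Hochberg adjustment over all genes tested, threshold 0.05), each pair of conditions in its own table with 3 libraries against 3 and no replicate block. All adjusted p-values in the text come from this test unless another is named, and standard errors were derived from estimate and F value. Normalized counts were scaled with TMM factors set over all 9 libraries together. An exact permutation test of 3 libraries against 3 cannot give a two-sided p under 0.1. Alternatives were median-ratio and upper-quartile normalization, DESeq2 1.42.0, no filter, at least 10 counts in every library, a fit of all 9 libraries, the replicate block, and leaving out each library in turn, which makes 13 settings per comparison. The calls of the neighbour, maintenance and other lists under these settings were added after seeing the data.

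In 3 simulations of VPA against vehicle with 17360 genes and 200 changed, 75% of these were found by edgeR, with 7.62% of its calls false, and 76% by DESeq2, with 14.9% false. Libraries held 15290436 to 17417478 counts. The listed genes, the other gene lists and the markers were chosen with earlier results of these data known. All 10 listed genes are named. Other genes come from the lists, from overlapping genes with over 10% of the count of a listed gene, and from the closest correlation for each listed gene (mean of at least 100 normalized counts). AC007938.2 was named after its values were seen.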

Additional observations from a re-analysis of the deposited data

How the results depend on the processing

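Over 13 alternatives per comparison, 319 single-gene estimates kept their direction and side of the threshold, 3 passed it newly, 11 lost it and 18 changed sign, and of the counts of calls 55 stayed within 1.5 times and 23 did not. In VPA against vehicle, 1 listed gene was called with upper-quartile normalization, with DESeq2, without a filter on low counts and with the replicate block, in place of 2. In VPA + Rapamycin against VPA, the fit of all 9 libraries called 0 listed genes and 113 of all genes, in place of 1 and 1168. Leaving out single libraries gave 1 to 3 listed genes and 3390 to 6710 of all genes in VPA against vehicle, 0 to 1 and 472 to 1203 in VPA + Rapamycin against VPA, and 1 to 2 and 1295 to 4314 in VPA + Rapamycin against vehicle. The cause of these differences was not tested, beside the smaller number of libraries.

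The same settings, leaving out a library, gave log2 fold changes of -0.42 to 0.21 for DLK1, -1.88 to 1.79 for NNAT and -0.13 to 0.09 for GRB10 in VPA against vehicle, of -0.12 to 0.083 for MEG3 and -1.02 to 1.42 for NNAT in VPA + Rapamycin against VPA, and of -0.33 to 0.30 for DLK1, -0.020 to 0.44 for PEG10, -1.40 to 1.70 for NNAT, -0.11 to 0.031 for NDN and -0.16 to 0.33 for PLAGL1 in VPA + Rapamycin against vehicle. None of the estimates that changed sign passed the threshold in the main test.

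Same-numbered libraries did not deviate together from their group means in every pair. Their correlations were 0.0298, 0.0600 and -0.104 between vehicle and VPA, and 0.0839, -0.0490 and -0.0149 between VPA and VPA + Rapamycin. Between vehicle and VPA + Rapamycin they were 0.0858, 0.0723 and 0.241. The highest with a library of another number were, in this order, 0.0459, 0.0634 and 0.0762, then 0.0237, 0.124 and 0.0244, then -0.0457, 0.152 and -0.0246. The same-numbered value was the higher one for number 1 between VPA and VPA + Rapamycin. It was also higher for numbers 1 and 3 between vehicle and VPA + Rapamycin. These correlations do not establish a pairing. The recurring numbers and sample tags may mark the clones, which the labels do not say, and the shared source of same-numbered libraries was not tested. With the replicate number as a block, 4965, 1244 and 4040 genes were called in the 3 comparisons, against 5568, 1168 and 3307 without it. Of the listed genes 1, 1 and 1 were called with the block, and 2, 1 and 1 without it. The block turned NNAT to 0.45 in VPA + Rapamycin against VPA and to 0.41 in VPA + Rapamycin against vehicle, and DLK1 to 0.047 in the latter. PEG3 lay under 3 counts in each library and could not be compared, and 3 libraries per condition limit DLK1, MEG3, PEG10 and NNAT.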
